A study of Mus musculus with 31 samples.

Results

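The genes described here are 35 genes of macrophages and other leukocytes, measured in whole fetal mouse gonads. They were chosen by name, as genes known from such cells, with earlier results of these data known. All 35 were among the 18193 named genes of the arrays. Of these, 23 were measured by 1 probe set and 12 by several, and of several the brightest on average was used.

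The arrays held RNA from 31 pairs of gonads at embryonic day 14.5, freed from the mesonephros, with 1 pair per array. All embryos carried the Sf1-cre transgene, so the controls (Ctr) were not wild type: they had the transgene and 1 floxed allele of each gene, Ctnnb1 +/f and Sox9 +/f. The Ctnnb1KO gonads were Ctnnb1 f/f and Sox9 +/f, the Sox9KO gonads were Ctnnb1 +/f and Sox9 f/f, and the double knockout (DKO) gonads were f/f for both. Each genotype was measured in XX and in XY gonads, with 4 arrays per group except XY DKO, which had 3. Ctnnb1 encodes beta-catenin, which carries the canonical WNT signal of the ovary, and Sox9 encodes the factor that makes supporting cells become Sertoli cells. The Sf1 promoter drives Cre in gonadal somatic cells and is not known to do so in blood-derived cells, so neither gene is expected to be deleted in macrophages.

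Macrophages enter the fetal gonad from the yolk sac and the fetal liver and settle near its vessels. They depend on the receptor CSF1R, take up dead cells and debris, sense antibody and damage through receptors that signal through the adaptors TYROBP and FCER1G, and are a main source of the complement protein C1q. In the fetal testis they have been linked to vessel formation and to the clearing of misplaced cells. Many of the 35 genes, such as Ptprc, Coro1a, Cd53, Fcer1g, Tyrobp and Lyz2, are also expressed by granulocytes, monocytes and other leukocytes. In whole gonads, more cells of a type and more RNA per cell cannot be told apart.

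Signals were linear intensities that the deposited scaling set to a trimmed mean of 500.0 on every array, with array medians between 120.6 and 168.8. Signals of different probe sets are not compared with each other as levels. The library labelled XX Ctnnb1KO replicate 4 did not match the other XX arrays in Xist, the RNA of the inactive X chromosome: its signal was 51.1, against 7490 to 9432 on the other 15 XX arrays and 42.3 to 103.5 on the 15 XY arrays. Its signal of the Y-linked gene Eif2s3y was 29.6, against at most 30.3 on the other XX arrays and at least 2516 on the XY arrays. It was kept under its label, and the main counts are also given without it.

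The 35 genes were not all measured well. Relative to the median of its own array, 7 genes were above it on no array: Cd14, Adgre1, Itgam, Spi1, Cd48, Cd163 and Trem2. These include Adgre1, which encodes the macrophage surface protein F4/80, and Spi1, which encodes PU.1, the transcription factor of the macrophage lineage. Tests were made for the 25 genes above the median on at least 3 of the 31 arrays, and Fcgr1, Itgb2 and Ncf4 also missed that limit. Of the 25 tested genes, 6 (Aif1, C1qa, Cd52, Cx3cr1, Ms4a7 and Ptprc) were above the median on fewer than 3 of the 16 arrays from Ctnnb1 +/f gonads, so they entered the test through the Ctnnb1 f/f arrays and counts over the tested genes are descriptions. The other 10 genes are given by their signals, and by a second fit without this filter.

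Of the 35 genes, Csf1r, a marker of macrophages, was above the median on all 31 arrays, as were Tyrobp, C1qb and Mrc1, and the general myeloid gene Lyz2. Csf1r was at 915.8 ± 67.4 (SD, n = 4) in XX Ctr and 1026 ± 258.3 (n = 4) in XY Ctr. Genes of lymphocytes were mostly dim, as were some of the 35 genes. Of 19 measured lymphocyte genes, among them Cd3e, Cd79a, Ms4a1 and Cd4, 18 were above the median on no array. Of 16 measured monocyte and MHC class II genes, 8, among them Ccr2, Cd74, Flt3 and Itgax, were above it on no array, and 6 passed the filter.

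Promoter sequence was held in the RefSeq table (GRCm38.p6) for 24 of the 35 genes, as 30 promoters. They were searched on both strands, in the 250 bases before the start site, for GAGGAAG, a core with flank that PU.1 binds; its reverse complement is CTTCCTC. It was found in 10 of the 30 promoters (33.3%) and in 3486 of all 32851 promoters in the table (10.6%). The Fcgr3 promoters overlap, so the same match counts more than once among the 10. By gene it was in 9 of the 24 matched genes, against 3244 of all 27025 genes in the table (12%). The 9 were C1qc, F13a1, Fcgr1, Fcgr3, Itgam, Laptm5, Mrc1, Pf4 and Trem2. A match says that these letters are present and shows no binding. Shown are 3 genes that rose in XX gonads without Ctnnb1, and Mrc1, which was not called there and has 2 matches, so that genes of both kinds stand side by side. The 250 bases before the start run 5′ to 3′ on the gene's strand, with each match in capitals.
C1qc, chr4:136892915-136893164, minus strand: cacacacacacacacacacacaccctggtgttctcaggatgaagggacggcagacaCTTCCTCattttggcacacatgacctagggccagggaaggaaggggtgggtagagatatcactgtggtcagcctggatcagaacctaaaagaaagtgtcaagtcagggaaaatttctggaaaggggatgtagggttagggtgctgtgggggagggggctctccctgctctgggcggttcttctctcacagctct
Fcgr3, chr1:171059395-171059644, minus strand: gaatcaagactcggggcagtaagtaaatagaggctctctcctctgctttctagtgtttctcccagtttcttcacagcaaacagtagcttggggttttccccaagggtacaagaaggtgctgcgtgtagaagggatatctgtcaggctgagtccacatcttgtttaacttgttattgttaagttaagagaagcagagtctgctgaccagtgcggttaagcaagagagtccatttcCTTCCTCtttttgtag
Laptm5, chr4:130913066-130913315, plus strand: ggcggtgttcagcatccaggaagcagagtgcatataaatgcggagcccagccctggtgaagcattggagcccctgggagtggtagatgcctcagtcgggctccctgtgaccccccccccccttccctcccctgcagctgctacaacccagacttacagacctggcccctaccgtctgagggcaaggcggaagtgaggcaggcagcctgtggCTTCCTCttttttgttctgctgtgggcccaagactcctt
Mrc1, chr2:14229164-14229413, plus strand: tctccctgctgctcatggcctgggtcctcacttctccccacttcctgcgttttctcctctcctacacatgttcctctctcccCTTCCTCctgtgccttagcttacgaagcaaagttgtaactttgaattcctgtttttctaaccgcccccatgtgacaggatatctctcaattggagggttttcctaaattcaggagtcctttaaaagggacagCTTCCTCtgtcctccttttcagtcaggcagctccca
In all 4 the match lies on the opposite strand and so reads CTTCCTC. Of the 15 matched genes that were called higher in XX gonads without Ctnnb1, 3 hold it, and of the 4 matched genes that were tested and not called, 3 hold it (F13a1, Mrc1 and Pf4).

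Macrophage and leukocyte genes were higher in XX gonads that lacked Ctnnb1, with Sox9 +/f or f/f. The 8 arrays of XX Ctnnb1KO and XX DKO were set against the 8 of XX Ctr and XX Sox9KO as the mean of both Ctnnb1 differences. Of the 25 tested genes, 20 rose and 0 fell, where 11.1% of all 11777 tested genes rose and 10.2% fell (limma, adjusted p under 0.05). Their median difference was 0.73 on the log2 scale, and that of all tested genes 0.007. Among the 19 genes that passed the filter on the Ctnnb1 +/f arrays alone, 15 rose. In the fit without the filter, 25 of all 35 genes rose, where 7.72% of all 18193 genes did, and 34 of the 35 differences were positive. Without the library labelled XX Ctnnb1KO replicate 4, 19 of the 25 tested genes rose.

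**Figure D1:**
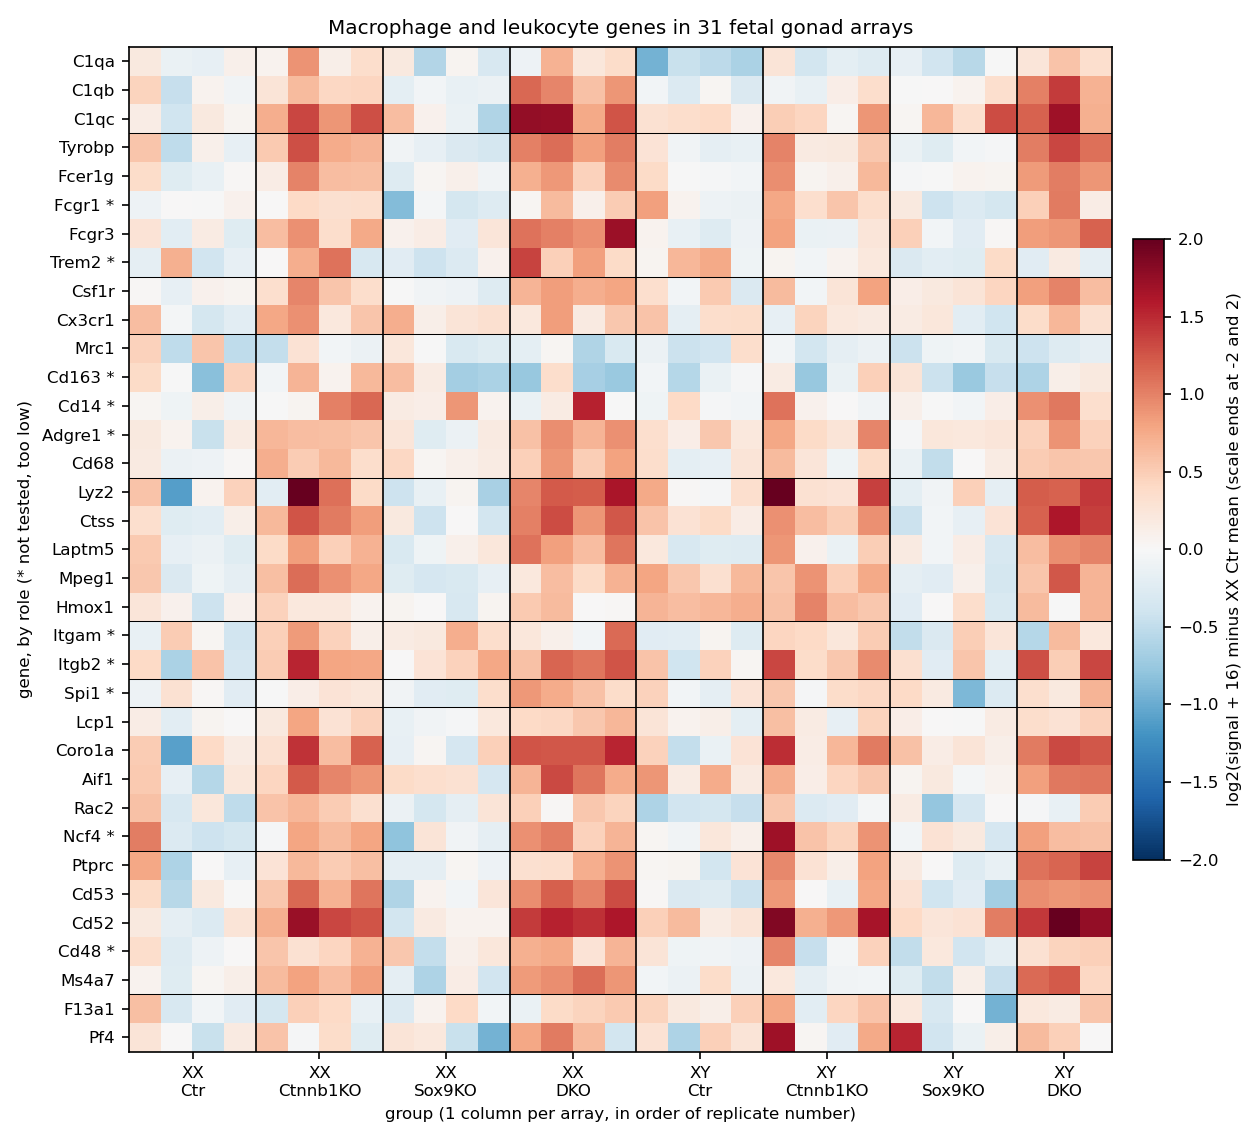
Each cell shows 1 of the 35 genes (rows, grouped by role) on 1 of the 31 arrays (columns, grouped by genotype), as log2(signal + 16) minus the mean of the XX Ctr arrays. Red cells fill the columns of XX Ctnnb1KO, XX DKO and XY DKO for most genes, whose median difference from XX Ctr per array lay at 0.47 to 1.0, and the 4 XY Ctnnb1KO columns lay at 0.73, 0.13, 0.12 and 0.55; an asterisk marks the 10 genes that were not tested.

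The complement C1q chains, which together form the protein that binds to antibody and cell debris, all rose, where 11.1% of all tested genes did. C1qb signal in XX Ctr was 1652, 877.2, 1272 and 1151, and in XX Sox9KO 1056, 1165, 1090 and 1115. In XX Ctnnb1KO it was 1440, 1873, 1607 and 1634, and in XX DKO 2699, 2398, 1811 and 2238. The XX DKO arrays lay above every array with Ctnnb1, and XX Ctr replicate 1 reached into the range of XX Ctnnb1KO. Over both Sox9 states C1qb was higher by 0.73 ± 0.11 log2 units (SE, 8 against 8 arrays, limma adjusted p = 4.1e-06), or 1.65-fold. C1qc ran from 55.4 to 151.8 with Ctnnb1 and from 164.5 to 351.5 without it, with no overlap between the 8 and the 8, and differed by 1.22 ± 0.19 (adjusted p = 8.92e-06). C1qa was dim, with medians of 95.8 and 124.2, and was above the array median on 0 of the 16 Ctnnb1 +/f arrays. It thus entered the test through the Ctnnb1 f/f arrays. Its difference of 0.41 ± 0.15 passed narrowly (adjusted p = 0.0452) and missed the threshold in 14 alternative fits, where its adjusted p reached 0.116. The genes C1qb, C1qc and C1qa are neighbours on chromosome 4.

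Among Fc receptors and their adaptors, the adaptor genes Tyrobp and Fcer1g and the receptor gene Fcgr3 rose. TYROBP pairs with TREM2 and related receptors and passes their signal to the kinase SYK. Tyrobp signal was 942.6, 441.4, 685.0 and 565.6 in XX Ctr, 604.4, 566.2, 517.8 and 493.1 in XX Sox9KO, 923.1, 1569, 1073 and 1025 in XX Ctnnb1KO, and 1285, 1389, 1132 and 1303 in XX DKO. All 8 arrays without Ctnnb1 except XX Ctnnb1KO replicate 1 lay above the highest array with it. The difference was 1.01 ± 0.13 (adjusted p = 2.17e-07), or 2.01-fold. Fcer1g, whose product is the gamma chain of Fc receptors, had a median of 542.2 without Ctnnb1 and 329.4 with it, and differed by 0.69 ± 0.12 (adjusted p = 5.01e-05). Fcgr3, a low-affinity receptor for IgG, ran from 235.2 to 632.2 without Ctnnb1 and from 152.2 to 223.6 with it. These ranges do not overlap, and the difference was 0.89 ± 0.14 (adjusted p = 7.97e-06). The high-affinity receptor gene Fcgr1 and the lipid and debris receptor gene Trem2 were too low to be tested: Fcgr1 ran from 53.6 to 90.9 without Ctnnb1 and from 21.8 to 57.4 with it, and Trem2 from 5.99 to 54.4 and from 4.79 to 29.2. In the fit without the filter they were higher by 0.49 ± 0.16 and 0.67 ± 0.19, but the other Trem2 probe set gave a difference of -0.32.

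Csf1r, which encodes the receptor for CSF1 and IL34 that macrophages need to survive, also rose. Its signal was 928.6, 817.5, 967.8 and 949.3 in XX Ctr and 907.1, 870.4, 851.3 and 765.3 in XX Sox9KO. It was 1161, 1807, 1350 and 1172 in XX Ctnnb1KO and 1479, 1651, 1523 and 1591 in XX DKO. No array without Ctnnb1 was as low as the highest array with it, and the difference was 0.71 ± 0.11 (adjusted p = 9.17e-06), or 1.64-fold. Its other 2 probe sets gave 0.59 and 0.33. The chemokine receptor gene Cx3cr1 did not pass the test: it had medians of 128.8 without and 96.8 with Ctnnb1, its ranges overlapped, and the difference was 0.35 ± 0.15 (adjusted p = 0.111).

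The scavenger and surface receptors did not move as a group. Cd68, a protein of the macrophage's late endosomes and lysosomes, had a median of 201.0 without Ctnnb1 and 136.0 with it and rose by 0.52 ± 0.12 (adjusted p = 0.00104). Mrc1, the mannose receptor of tissue macrophages, gave the opposite sign. Its signal was 407.8, 201.9, 438.1 and 202.4 in XX Ctr, 346.7, 292.6, 233.2 and 246.0 in XX Sox9KO, 207.5, 360.7, 281.9 and 269.2 in XX Ctnnb1KO and 254.8, 301.4, 187.7 and 234.1 in XX DKO. The ranges with and without Ctnnb1 overlap, and the difference was -0.14 ± 0.15 (adjusted p = 0.562), the lowest of the 25. Adgre1 was below the median of every array but its ranges did not overlap, from 83.3 to 113.7 without Ctnnb1 and from 33.9 to 64.2 with it, and in the fit without the filter it was higher by 0.68 ± 0.13 (adjusted p = 0.000201). Cd163, the haemoglobin scavenger receptor, and Cd14, a coreceptor for bacterial lipopolysaccharide, stayed at or below 32.7 and 40.9 in all XX arrays.

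Among lysosomal and degradation genes, Ctss had the smallest adjusted p of the 25. Its product, cathepsin S, is a protease that prepares antigens for MHC class II. Ctss signal was 698.1, 463.9, 472.3 and 597.3 in XX Ctr, 635.3, 409.8, 552.6 and 422.1 in XX Sox9KO, 867.9, 1338, 1142 and 992.7 in XX Ctnnb1KO and 1125, 1377, 1027 and 1326 in XX DKO. The arrays with and without Ctnnb1 did not overlap, and the difference was 1.10 ± 0.12 (adjusted p = 8.82e-09), or 2.14-fold. Laptm5, a membrane protein of leukocyte lysosomes, had medians of 3132 and 1715 and rose by 0.76 ± 0.13 (adjusted p = 3.72e-05), although XX Ctr replicate 1, at 2648, lay above 2 of the 8 arrays without Ctnnb1. Mpeg1, a pore-forming protein of macrophages, had medians of 263.0 and 136.6 and rose by 0.79 ± 0.12 (adjusted p = 6.48e-06). Lyz2, the lysozyme gene of myeloid cells, rose by 1.21 ± 0.27 (adjusted p = 0.00102), from 444.3 to 2467 without Ctnnb1 and from 231.7 to 776.8 with it. Lyz2 and Lyz1 are near-identical copies, so their signals may be shared. Hmox1, the heme-degrading enzyme that other cell types also make, did not pass: its medians were 672.8 and 602.3 and the difference was 0.29 ± 0.12 (adjusted p = 0.0729).

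The 4 tested genes of the leukocyte cytoskeleton and oxidase rose, where 11.1% of all tested genes did. Coro1a, which binds actin in blood cells, had medians of 808.2 without and 359.8 with Ctnnb1 and rose by 1.10 ± 0.20 (adjusted p = 9.34e-05). XX Ctr replicate 2, at 149.1, was its lowest array and XX Ctnnb1KO replicate 1, at 416.5, the lowest without Ctnnb1. Aif1, which encodes IBA1, had medians of 211.9 and 128.0 and rose by 0.83 ± 0.15 (adjusted p = 0.000119). It was above the array median on 2 of the 16 Ctnnb1 +/f arrays, so it entered the test through the Ctnnb1 f/f arrays. Lcp1, the actin-bundling protein of leukocytes, rose by a smaller 0.47 ± 0.10 (adjusted p = 0.000376), with medians of 682.8 and 498.0. The small GTPase gene Rac2 rose by 0.49 ± 0.15 (adjusted p = 0.021), but 1 array alone without Ctnnb1 lay above the highest array with it, and the call was lost without XX Ctr replicate 2 or replicate 4, with an adjusted p of up to 0.0596. Ncf4, a subunit of the phagocyte oxidase, was not tested: it ran from 58.7 to 138.2 without Ctnnb1 and from 27.8 to 75.6 with it, apart from XX Ctr replicate 1 at 139.5.

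Where 11.1% of all tested genes rose, all 4 tested genes of leukocyte membrane proteins were called higher. Of these, Cd52, Ms4a7 and Ptprc were above the median on 2, 0 and 1 of the 16 Ctnnb1 +/f arrays, so they were tested only through the arrays where they are high. Cd52, a short glycoprotein of leukocyte surfaces, was at 117.5, 86.5, 79.9 and 122.5 in XX Ctr, 74.2, 115.5, 105.3 and 106.5 in XX Sox9KO, 173.3, 368.9, 276.7 and 260.9 in XX Ctnnb1KO, and 289.3, 322.7, 304.6 and 341.3 in XX DKO. No array overlapped, and the difference of 1.39 ± 0.16 (adjusted p = 5.28e-08), or 2.61-fold, was the largest of the 25. Cd53, a tetraspanin, ran from 569.5 to 972.5 without Ctnnb1 and from 249.4 to 509.4 with it and rose by 1.03 ± 0.16 (adjusted p = 6.4e-06). Ms4a7, a membrane protein of macrophages, ran from 176.8 to 256.3 and from 66.1 to 123.9 and rose by 0.96 ± 0.13 (adjusted p = 6.62e-07). Ptprc, which encodes CD45, rose by 0.59 ± 0.15 (adjusted p = 0.00488), with XX Ctr replicate 1, at 187.0, above all but 1 of the arrays without Ctnnb1. Cd48, an adhesion protein of blood cells, was not tested, with medians of 74.1 and 44.8.

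The integrin genes Itgam and Itgb2, whose products pair as the complement receptor CR3, and the transcription factor gene Spi1 were too low to be tested. Itgb2 had medians of 102.8 without and 62.3 with Ctnnb1, Itgam of 26.8 and 22.2, and Spi1 of 78.4 and 55.5. In the fit without the filter Itgb2 was higher by 0.77 ± 0.21 (adjusted p = 0.00822), and Itgam and Spi1 gave 0.23 ± 0.19 and 0.42 ± 0.16 (adjusted p = 0.476 and 0.0731). F13a1, the clotting factor subunit made by tissue macrophages and platelets, and Pf4, the platelet chemokine that some macrophages also make, did not pass the test. F13a1 differed by 0.18 ± 0.17 (adjusted p = 0.503) and Pf4 by 0.46 ± 0.27 (adjusted p = 0.235), and Pf4 ran from 340.7 to 924.7 without Ctnnb1 and from 221.5 to 534.9 with it. Of the 25 tested genes, Cx3cr1, F13a1, Hmox1, Mrc1 and Pf4 were the 5 not called over both Sox9 states.

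**Figure D2:**
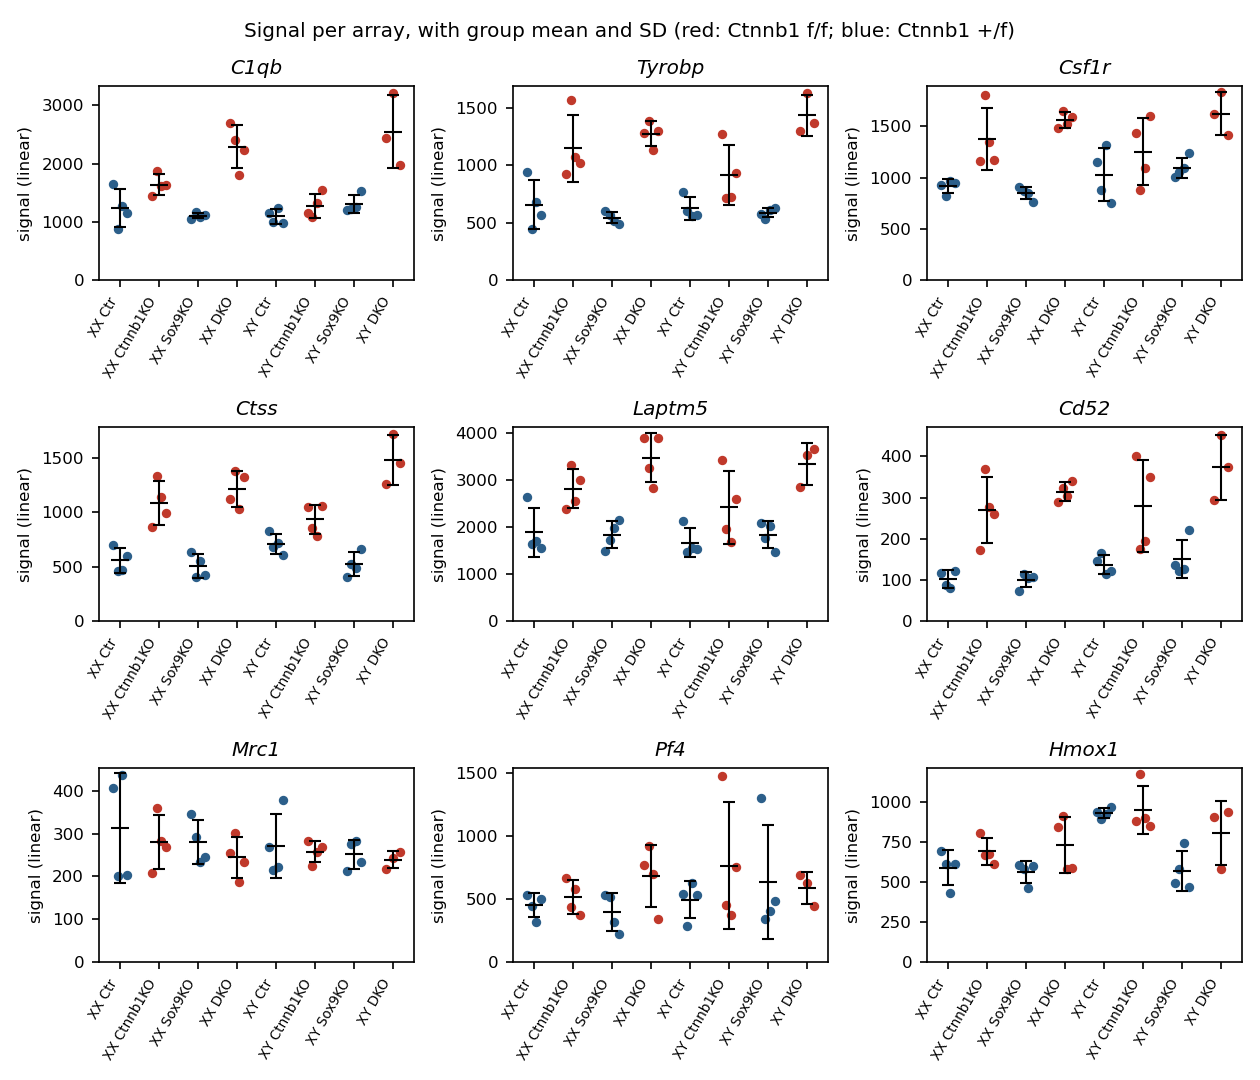
Linear signal of 9 genes on each array, by group, with the group mean and SD as black bars; red points are Ctnnb1 f/f gonads and blue points Ctnnb1 +/f gonads. Csf1r, Ctss and Cd52 separate red from blue in XX gonads, the XY Ctnnb1KO points spread widely (Cd52 from 175.0 to 401.2), and Mrc1 shows no separation.

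Each XX comparison gave the same direction. Against XX Ctr, 15 of the 25 genes rose in XX Ctnnb1KO and 0 fell, with 4.81% of all tested genes higher and 5.32% lower, and the median difference of the 25 genes was 0.60. This count rested on single arrays: it was 7 without XX Ctr replicate 2, 9 without XX Ctnnb1KO replicate 2, 19 without XX Ctr replicate 1 and 11 without the library labelled XX Ctnnb1KO replicate 4. In XX DKO against XX Ctr, 16 rose and 0 fell, with 7.29% and 5.61% of all tested genes, and the median was 0.76. In XX DKO against XX Sox9KO, 18 rose and 0 fell, with 7.36% and 6.16% of all tested genes, and the median was 0.80. The first and second of these share the XX Ctr arrays, and the second and the third share the XX DKO arrays. Among the 19 genes that passed the filter on the Ctnnb1 +/f arrays alone, 12, 13 and 14 rose in the 3 comparisons. Called in all 3 were 14 genes: Aif1, C1qc, Cd52, Cd53, Cd68, Coro1a, Csf1r, Ctss, Fcer1g, Fcgr3, Laptm5, Lcp1, Ms4a7 and Tyrobp. Of these, Aif1, Cd52 and Ms4a7 entered the test through the Ctnnb1 f/f arrays. The share of all tested genes that were called in all 3 was not counted. C1qb missed in XX Ctnnb1KO against XX Ctr, at 0.43 ± 0.15 (adjusted p = 0.0709), and gave 0.90 ± 0.15 (adjusted p = 6.79e-05) in XX DKO against XX Ctr.

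Loss of Sox9 alone in XX gonads, where Sox9 is low, gave no call. limma called 0 of the 25 genes and 0% of all tested genes in XX Sox9KO against XX Ctr, with 0 of the 25 at an unadjusted p under 0.05 and a median of -0.08. The 4 XX Sox9KO arrays were close to each other in the summed signal of the 35 genes. It ran from 9756 to 10027, within the XX Ctr range of 8415 to 13757. Single genes spread more in XX Sox9KO, such as C1qc from 55.4 to 151.8 and Cd53 from 249.4 to 457.4. In XX DKO against XX Ctnnb1KO limma again called 0 of the 25 and 0% of all tested genes, with 3 of the 25 at an unadjusted p under 0.05. These were C1qb at 0.47 ± 0.15, Fcgr3 at 0.52 ± 0.19 and Mpeg1 at -0.37 ± 0.17.

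In XY gonads, loss of Ctnnb1 with Sox9 present gave no call, and the arrays of the group differed widely. limma called 0 of the 25 genes in XY Ctnnb1KO against XY Ctr and 0.0679% of all tested genes, while 21 of the 25 differences were positive, 10 had an unadjusted p under 0.05 and the median was 0.31. Cd52 came nearest, at 0.89 ± 0.23 (adjusted p = 0.36). Its signal was 401.2, 175.0, 195.0 and 349.4 in XY Ctnnb1KO and 145.4, 164.6, 114.1 and 122.8 in XY Ctr, so replicates 1 and 4 were high and replicates 2 and 3 lay just above the controls. Tyrobp showed the same arrays high, at 1275, 717.1, 727.5 and 933.5, against 767.9, 602.8, 559.3 and 569.3 in XY Ctr. Over the 35 genes the summed signal was 19545, 11828, 11614 and 16400 in XY Ctnnb1KO and 9847 to 12842 in XY Ctr.

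With Sox9 also lost, XY gonads without Ctnnb1 had higher macrophage and leukocyte genes on all 3 arrays. In XY DKO against XY Sox9KO, 17 of the 25 genes rose and 0 fell, where 11.1% of all tested genes rose and 10.8% fell, and the median difference was 0.89. Among the 19 genes that passed the filter on the Ctnnb1 +/f arrays alone, 12 rose. In the fit without the filter, 19 of all 35 genes rose, where 7.34% of all 18193 genes did. The arrays of 19 of the 25 genes lay higher with no overlap, as did those of 12.9% of all tested genes, and so did those of 4 of the 10 genes not tested. In the XX comparison of 8 against 8 arrays these numbers were 7 of 25, 2.76% and 1 of 10. Ctss was at 1261, 1719 and 1458 in XY DKO and at 404.6, 526.7, 489.6 and 667.1 in XY Sox9KO. The higher group was above the lower on every array, and the difference was 1.49 ± 0.18 (adjusted p = 1.26e-07), or 2.80-fold. Ptprc, at 235.3, 250.2 and 286.4 against 118.0, 103.9, 83 and 91.1, rose by 1.25 ± 0.23 (adjusted p = 0.00017). Tyrobp rose by 1.26 ± 0.19 (adjusted p = 8.3e-06), C1qb by 0.94 ± 0.16 (adjusted p = 6.97e-05), Cd52 by 1.24 ± 0.24 (adjusted p = 0.000323) and Csf1r by 0.56 ± 0.17 (adjusted p = 0.0166).

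By role, 2 of 3 C1q genes, the 3 tested Fc receptor and adaptor genes, 4 of 5 lysosomal genes, 4 of 4 tested leukocyte membrane protein genes and 2 of 4 tested cytoskeleton and oxidase genes rose in XY DKO against XY Sox9KO. Of these, C1qa, Aif1, Cd52, Ms4a7 and Ptprc entered the test through the Ctnnb1 f/f arrays. All 17 genes called in this XY comparison were also among the 20 called in XX gonads, and this overlap was not counted over all tested genes. The 3 others, C1qc, Lcp1 and Rac2, gave 0.61 ± 0.29, 0.29 ± 0.15 and 0.34 ± 0.24 in XY (adjusted p = 0.134, 0.157 and 0.32). The other Lcp1 probe set gave 0.54 in XY. The XX and the XY comparison share no array. Mrc1 again did not pass the test, at 217.4, 243.6 and 256.3 against 213.3, 277.0, 282.4 and 234.0, with a difference of -0.06 ± 0.23 (adjusted p = 0.875). Pf4 differed by 0.09 ± 0.41 (adjusted p = 0.902), with XY Sox9KO replicate 1 at 1305 and the others of that group at 338.2 to 483.5. Against XY Ctr, 14 genes rose and 0 fell in XY DKO, where 9.62% of all tested genes rose and 7.61% fell, with a median of 0.90. Among the 19 genes that passed the filter on the Ctnnb1 +/f arrays alone, 10 rose. The 14 included C1qb at 1.18 ± 0.16 (adjusted p = 2.65e-06) and Fcgr3 at 1.07 ± 0.21 (adjusted p = 0.000346), and Mpeg1 gave 0.25 ± 0.18 (adjusted p = 0.382).

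**Figure D3:**
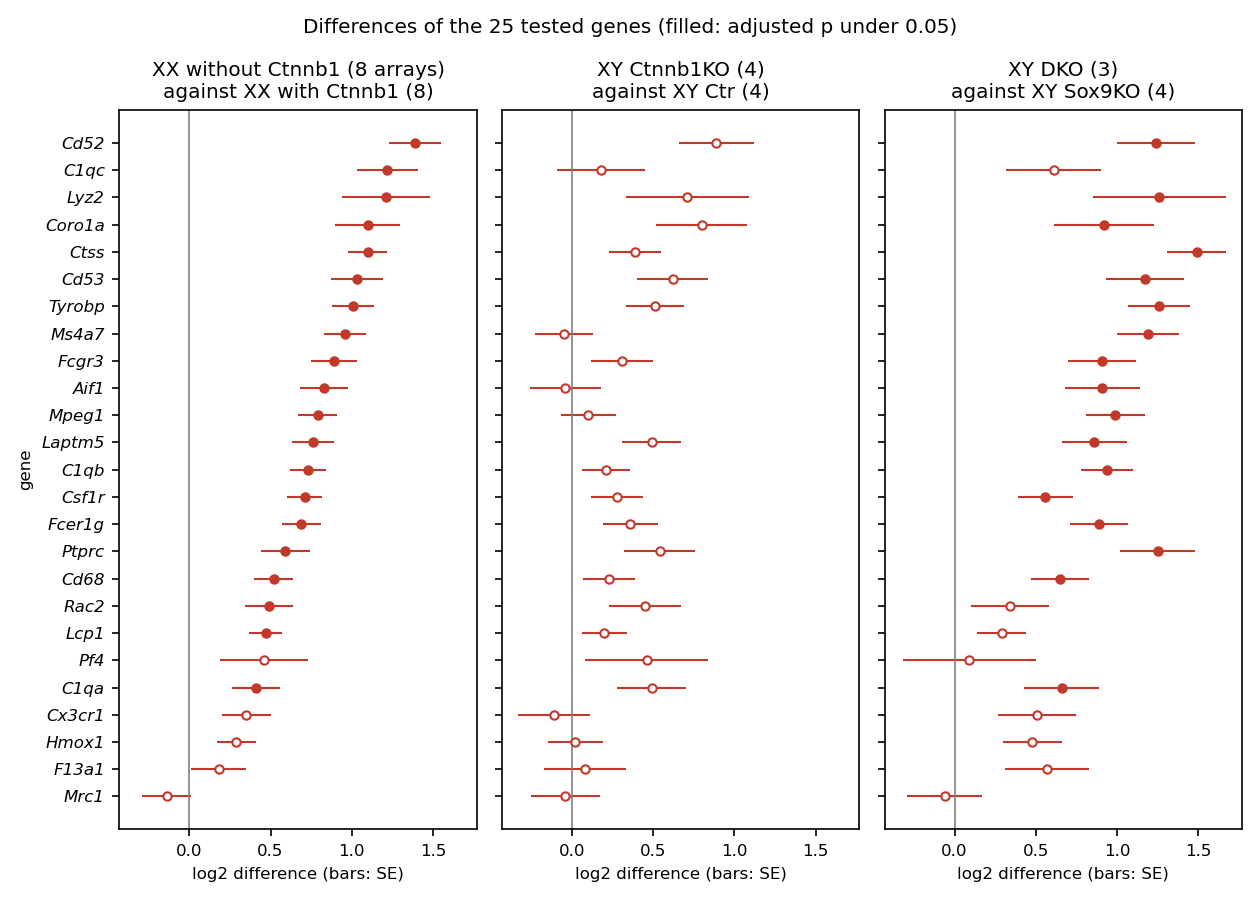
Log2 differences of the 25 tested genes with their SE in XX gonads without against with Ctnnb1, in XY Ctnnb1KO against XY Ctr and in XY DKO against XY Sox9KO; filled points have an adjusted p under 0.05. The first panel has 20 filled points and the third 17, all to the right of 0, and the middle panel has none, with 21 of 25 points to the right of 0.

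Control testes and ovaries differed in few of these genes. In XY Ctr against XX Ctr, 2 of the 25 rose and 1 fell, where 18% of all tested genes rose and 19.8% fell, and the median was 0.06. Hmox1 was at 936.9, 892.9, 925.0 and 968.6 in XY Ctr and at 691.1, 613.9, 432.6 and 612.5 in XX Ctr, with no overlap, and was higher by 0.67 ± 0.17 (adjusted p = 0.00176). Mpeg1 was higher by 0.57 ± 0.17 (adjusted p = 0.00812) and C1qa lower by -0.64 ± 0.21 (adjusted p = 0.0159). Without XX Ctr replicate 1 the count was 5 in place of 3.

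Both genes that were higher in control testes were lower in XY gonads without Sox9. In XY Sox9KO against XY Ctr, 0 of the 25 rose and 3 fell, where 22.7% of all tested genes rose and 16% fell, and the median was -0.05. Mpeg1 fell by 0.74 on the log2 scale (SE 0.17, adjusted p = 0.000915), Hmox1 by 0.71 (SE 0.17, adjusted p = 0.001) and Ctss by 0.44 (SE 0.16, adjusted p = 0.0317). This comparison and the one before it share the XY Ctr arrays. XY Sox9KO and XX Ctr, which share no array, gave 0 calls among the 25 and 0.628% among all tested genes (limma), with 2 of the 25 at an unadjusted p under 0.05 and a median of -0.04.

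Between XY and XX gonads that both lacked both genes, limma called 0 of the 25 and 5.22% of all tested genes, with 1 of the 25 at an unadjusted p under 0.05 and a median of 0.01. Between XY Ctnnb1KO and XX Ctnnb1KO, 1 gene was higher and 1 lower, where 16% and 16.5% of all tested genes were, and the median was -0.21. Ms4a7 was lower, at 129.6, 94.8, 103.2 and 104.4 in XY against 178.6, 202.8, 176.8 and 206.1 in XX, by -0.74 ± 0.18 (adjusted p = 0.00172). Hmox1 was higher by 0.45 ± 0.17 (adjusted p = 0.0381). The count of 2 moved to 7 without XY Ctnnb1KO replicate 1 and to 4 without XY Ctnnb1KO replicate 4. It was 1 without XX Ctnnb1KO replicate 2, without XX Ctnnb1KO replicate 4, or without XY Ctnnb1KO replicate 2 or 3.

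Whether the response to Ctnnb1 loss differed between the sexes was tested as an interaction. With Sox9 present, limma called 0 of the 25 genes and 4.19% of all tested genes, while 21 of the 25 interactions were negative, 6 had an unadjusted p under 0.05 and the median was -0.23. The smallest adjusted p was that of Mpeg1, at -0.75 ± 0.24 (adjusted p = 0.0802), followed by Ms4a7 at -0.77 ± 0.25 (adjusted p = 0.0948) and Aif1 at -0.91 ± 0.31 (adjusted p = 0.103). The count was 2 without XX Ctr replicate 1 and 1 without XX Ctnnb1KO replicate 1. In gonads without Sox9 it called 0 of the 25 and 0.943% of all tested genes, with 0 of the 25 at an unadjusted p under 0.05 and a median of -0.01.

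Genes of other blood cells moved beside these genes on some arrays. The summed signal of 19 granulocyte genes, led by S100a8 and S100a9, was 15456, 696, 8210 and 12138 in XX Ctr, 3208, 31151, 12755 and 13253 in XX Ctnnb1KO, 932, 6492, 4354 and 8315 in XX Sox9KO and 21985, 12373, 20344 and 29334 in XX DKO. In XY gonads it was 5975, 4301, 1138 and 6608 in Ctr, 35600, 4638, 7518 and 15857 in Ctnnb1KO, 11717, 5092, 13700 and 9463 in Sox9KO and 21163, 6058 and 15050 in DKO. The arrays with the highest sums in XX Ctnnb1KO and XY Ctnnb1KO, replicates 2 and 1, were also those with the highest sums of the 35 genes, and XX Ctr replicate 2 was lowest for both. XX DKO replicate 2, at 12373, lay below XX Ctr replicate 1, at 15456, and its sum over the 35 genes was 20048 against 13757. XY DKO replicate 3, at 6058, lay within the XY Sox9KO range, and its sum over the 35 genes was 21205 against at most 11564. As group means, the granulocyte sums were 9125 in XX Ctr, 5023 in XX Sox9KO, 15092 in XX Ctnnb1KO and 21009 in XX DKO. They were 9993 in XY Sox9KO and 14090 in XY DKO.

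Of 12 tested granulocyte genes, 5 rose and 1 fell in XX gonads without Ctnnb1, where 11.1% of all tested genes rose and 10.2% fell. All 12 had an unadjusted p under 0.05, as had 3799 of all 11777 tested genes, and the median of the 12 was 1.28. They were led by Mpo at 2.49 ± 0.61 (adjusted p = 0.00302), Prtn3 at 1.18 ± 0.34 (adjusted p = 0.0115) and Ctsg at 1.52 ± 0.45 (adjusted p = 0.0129), which encode granule enzymes of immature granulocytes. In XY DKO against XY Sox9KO 0 rose and 1 fell, the eosinophil peroxidase gene Epx, where 11.1% of all tested genes rose and 10.8% fell. Of the 12, 1 had an unadjusted p under 0.05, and their median was 0.49. How much granulocytes contribute to the levels of the 35 genes was not tested. Of 4 tested mast cell genes 0 rose in XX, and Gata2, which ovarian cells also express, fell by 0.50. Of 16 tested endothelial genes, 1 rose and 2 fell in XX gonads without Ctnnb1, near the 11.1% and 10.2% of all tested genes. Pecam1 gave 0.49 ± 0.10 (adjusted p = 0.000514), Emcn -0.38 ± 0.06 (adjusted p = 1.06e-05) and Robo4 -0.23 ± 0.08 (adjusted p = 0.0455). The summed signal of the 16 was 7176 to 7955 in XX Ctr, 7516 to 8484 in XX Sox9KO, 6579 to 7910 in XX Ctnnb1KO and 7106 to 7809 in XX DKO. By limma, 0 of 9 tested erythroid genes rose or fell, their median was 0.28, none reached an unadjusted p of 0.05 (0 of 9), and the summed signal of 10 was 19710 to 31063 in XX Ctr, 18084 to 31580 in XX Sox9KO, 17631 to 26254 in XX Ctnnb1KO and 19844 to 33675 in XX DKO. Of 8 pregranulosa genes 7 fell in the same XX comparison, and their summed signal was 12553 to 13651 in XX Ctr and 6936 to 8308 in XX Ctnnb1KO. Their part in the result was not tested.

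**Figure D4:**
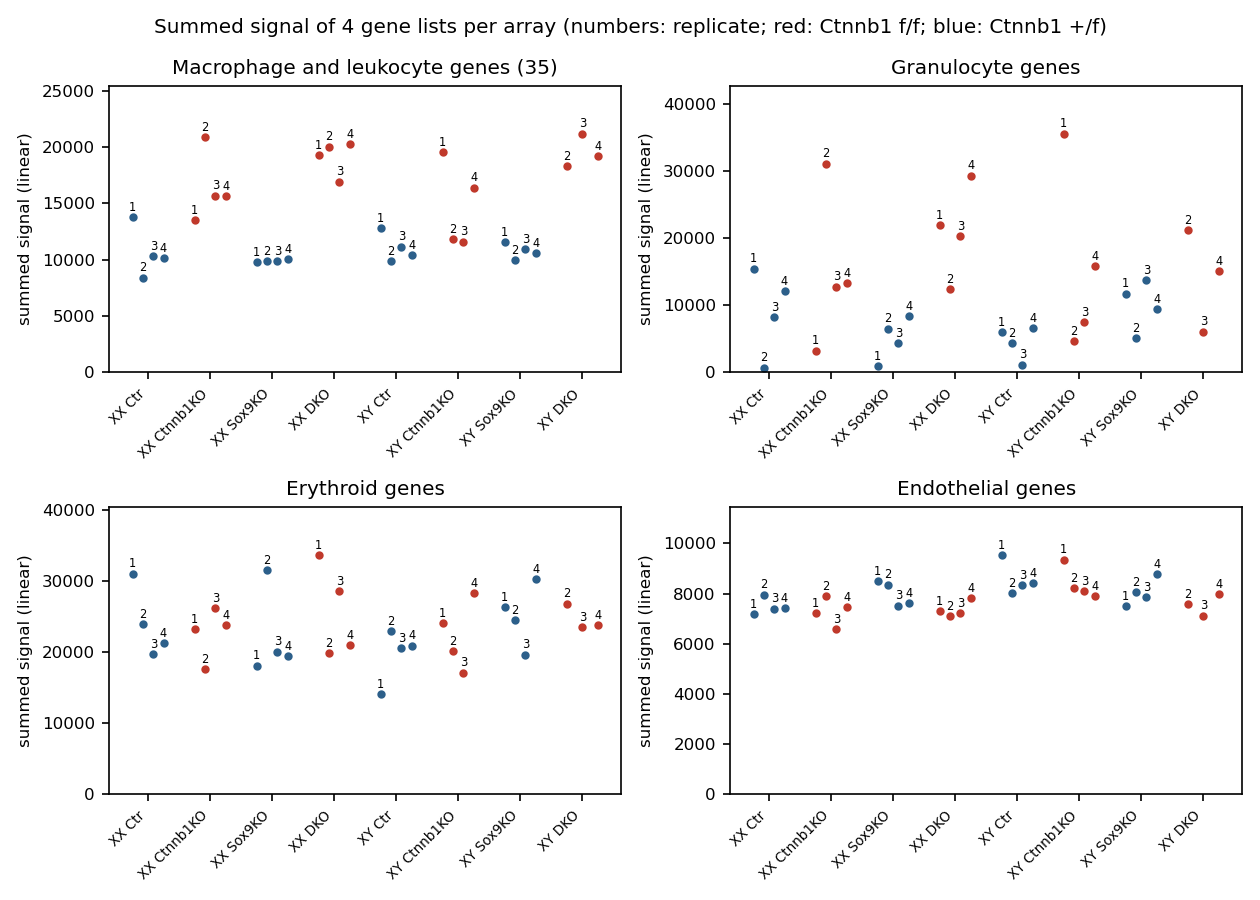
Summed linear signal of the 35 macrophage and leukocyte genes and of granulocyte, erythroid and endothelial genes on each array, labelled with the replicate number; red points are Ctnnb1 f/f gonads and blue points Ctnnb1 +/f gonads. The 35 genes lie at 16952 to 20276 in XX DKO and at 18325 to 21205 in XY DKO, above all blue points, whose highest is 13757, while the granulocyte sum runs from 696 to 35600 with overlap between most groups and the endothelial sum stays between 6579 and 9532.

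Other genes of the same cells gave mixed counts. Of 26 tested phagocytosis and lysosome genes, 8 rose and 1 fell in XX gonads without Ctnnb1, with a median of 0.05. Of all tested genes, 11.1% rose and 10.2% fell in this comparison. Cd36, a scavenger receptor that endothelial and steroid-producing cells also carry, rose by 1.08 ± 0.12 (adjusted p = 2.69e-08), the phagosome metal transporter gene Slc11a1 by 0.73 ± 0.15 (adjusted p = 0.000344), and Gas6, a bridging ligand for the uptake of dead cells that gonadal somatic cells make, fell by 0.80 (SE 0.11, adjusted p = 2.91e-06). Of 16 tested leukocyte signalling genes, 7 rose and 1 fell, with a median of 0.46. Alox5ap, of leukotriene synthesis, rose by 0.90 ± 0.17 (adjusted p = 0.000137) and Arhgdib by 0.86 ± 0.17 (adjusted p = 0.000295). Dock2, known from leukocyte migration, fell by 1.10 (SE 0.12, adjusted p = 3.01e-08). Its group means were 249.9 in XX Ctr, 253.5 in XX Sox9KO, 329.5 in XY Sox9KO and 69.1 in XY Ctr. The summed signal of the 35 genes had means of 10659, 9895, 10776 and 11067 in these groups, in the same order. Which cells the Dock2 signal comes from was not tested.

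Of 12 tested genes in a list of further macrophage surface and transcription factor genes, 3 rose and 2 fell in the same XX comparison, with a median of 0.14. Of all tested genes, 11.1% rose and 10.2% fell there. Above the median on no array were 21 of the 37 measured genes of that list, among them Siglec1, Lyve1, Folr2 and Marco. The called genes with the smallest adjusted p, Runx1 and Colec12, which fell, and Cebpa, which rose, are also expressed outside leukocytes. Runx1 had a mean of 1874 in XX Ctr and 184.0 in XY Ctr. Of 6 tested monocyte and MHC class II genes, 2 rose and 1 fell (Nr4a1 and H2-Aa higher, H2-Ab1 lower), with a median of 0.16. In XY DKO against XY Sox9KO, where 11.1% of all tested genes rose and 10.8% fell, the counts were 6 and 1 of 26, 5 and 1 of 16, 5 and 1 of 12 and 3 and 0 of 6 for these 4 lists.

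Of 23 measured genes of ligands, attractants and their receptors, 14, among them Ccl2, Il6 and Tnf, were above the median on no array. Of the 6 tested, 5 rose in XX gonads without Ctnnb1 and 0 fell, where 11.1% of all tested genes rose and 10.2% fell. The 5 include the receptor genes C3ar1 and C5ar1. Cxcl12, a chemokine of stromal cells, had means of 762.2 in XX Ctr, 2502 in XX Ctnnb1KO, 910.9 in XX Sox9KO and 2741 in XX DKO, and rose by 1.64 ± 0.12 (adjusted p = 2.46e-12). In XY gonads it was at 5221 in Ctr, 5446 in Ctnnb1KO, 858.6 in Sox9KO and 3424 in DKO. C3ar1, the receptor for complement C3a, rose by 0.91 ± 0.12 (adjusted p = 1.1e-06) in XX and by 1.17 ± 0.19 (adjusted p = 2.43e-05) in XY DKO against XY Sox9KO. Tgfb1 rose by 0.70 ± 0.16 (adjusted p = 0.00133) and Mif by 0.29 ± 0.08 (adjusted p = 0.00911) in XX. In XY DKO against XY Sox9KO, 3 of the 6 rose (Cxcl12, C3ar1 and C5ar1) and 0 fell, where 11.1% of all tested genes rose and 10.8% fell. Tgfb1 gave 0.04 ± 0.24 (adjusted p = 0.925) there and Mif -0.17 ± 0.12 (adjusted p = 0.341). Csf1, the ligand of CSF1R, had means between 118.2 and 156.8 over the 8 groups, and Il34, its other ligand, stayed at or below 50.9 on every array.

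Within several groups, the same arrays were high or low for most of the 25 tested genes. XX Ctr replicate 1 was the highest of its group for 20 of the 25 tested genes and replicate 2 the lowest for 16, XX Ctnnb1KO replicate 2 was the highest for 21 and replicate 1 the lowest for 18, and XY Ctnnb1KO replicate 1 was the highest for 18. After the group means were taken off, each gene was correlated over the 31 arrays with the mean of the other tested genes, as a description. Tyrobp was closest, at r = 0.929, then Fcer1g at 0.878 and Lyz2 at 0.799, and the genes at the other end were Ms4a7 at 0.265, Cx3cr1 at 0.223 and Hmox1 at -0.174. Outside the 35, the genes most like their mean over the same 31 arrays were Lgals3 (r = 0.862), which encodes galectin-3, the complement C5a receptor gene C5ar1 (0.848) and Lyz1 (0.837), then Arhgdib, Alox5ap, Fcnb, Ndrg2, B2m, Aqp1 and Nckap1l, down to 0.687. By list, the median r with that mean was 0.532 for 12 granulocyte genes, 0.434 for 6 ligand and attractant genes, 0.403 for 4 mast cell genes, 0.388 for 9 erythroid genes, 0.331 for 5 Leydig cell genes and 0.323 for 16 leukocyte signalling genes. It was 0.260 for 6 monocyte and MHC class II genes, 0.188 for 26 phagocytosis and lysosome genes, 0.136 for 8 Sertoli cell genes, 0.110 for 16 endothelial genes, 0.101 for 10 proliferation genes and 0.10 for the 12 further macrophage surface and transcription factor genes. It was -0.194 for 8 pregranulosa genes, -0.259 for 13 germ cell genes and 0.006 for all other tested genes. The granulocyte, mast cell and erythroid lists thus lay above the list of further macrophage genes. The arrays share RNA amplification and scaling, and these values carry no test.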

How the data were processed

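The 31 arrays were read from the deposited value table, whose linear signal intensities the authors computed by MAS5, as the submitters' processing notes name it, with no version or setting stated in the labels. The table has no log scale, and the mean of each array after trimming 2% at both ends is 500.0. Per the labels' protocols, 40 ng of total RNA per pair of gonads was amplified before labelling, which can change relative levels. Arrays have no read depth, and their number limits the precision.

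Of 45101 probe sets, 64 are controls and were dropped. GEO's annotation gives 1 gene symbol for 34945 of the rest, several for 932 and none for 9160. Each gene was represented by its brightest probe set, the scale was log2(signal + 16), on which changes of dim genes come out too small, and genes above the array's median on at least 3 arrays were kept (11777 of 18193). Groups came from the titles. limma 3.58.1 in R 4.3.3 fitted 8 group means over all arrays (23 residual degrees of freedom, median prior 6.68, eBayes with a trend), with Benjamini-Hochberg adjustment over all genes of a comparison and calls at an adjusted p under 0.05. Errors of differences are SE, folds are on the log2(signal + 16) scale, and SD is between arrays. The fit was tested on simulated data.

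Named here are the 35 genes, by role, up to 3 called genes per role by adjusted p and 1 not called with signals per array or range, up to 3 called genes per further list by adjusted p, and the 10 genes most like the 35; further genes complete small counts. The genes, lists and tests were chosen with earlier results of these data known. The lists were further macrophage surface and transcription factor, phagocytosis and lysosome, leukocyte signalling, monocyte and MHC class II, granulocyte, mast cell, lymphocyte, ligand and chemoattractant, endothelial, erythroid, germ cell, Sertoli cell, pregranulosa, Leydig cell and proliferation genes. Tried in turn were no filter, pseudocounts of 1 and 64, quantile normalization, eBayes without a trend, the mean of all probe sets of a gene, only the arrays compared, the replicate number as a block, and each array left out in turn.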

Additional observations from a re-analysis of the deposited data

Results flagged for a closer look

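In each group of 4 arrays, the highest and the lowest signal of each tested gene were compared with the others by Dixon's ratio (gap to the nearest array over the group's range) at its usual critical value. Of 175 groups of arrays, 7 passed it, and chance alone gives about 1 in 20. Control arrays with replicate number 1 stood out in 3 cases. Laptm5 was at 2648 in XX Ctr replicate 1, with the others at 1560 to 1700, and at 2122 in XY Ctr replicate 1, with the others at 1474 to 1558. Fcer1g was at 442.3 in XY Ctr replicate 1, with the others at 322.4 to 334.8. Ms4a7 was at 146.7 in XY Ctr replicate 3, with the others at 100.1 to 104.7. Coro1a was at 985.6 in XX DKO replicate 4, with the others at 807.9 to 819.0. In XX Sox9KO, Hmox1 was low in replicate 3, at 459.9 with the others at 579.7 to 602.8, and Aif1 in replicate 4, at 78.5 with the others at 132.5 to 139.9.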

How the results depend on the processing

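Over all settings tried, the count of called genes stayed within 1.5 times its value, or at 0, in 12 of the 16 comparisons, and moved further in 4. In XX Ctnnb1KO against XX Ctr (15 called), leaving out 1 array gave 7 (without XX Ctr replicate 2) to 19 (without XX Ctr replicate 1). In XY Ctr against XX Ctr (3 called) it gave 2 to 5, in XY Ctnnb1KO against XX Ctnnb1KO (2 called) 1 to 7, and in the interaction of sex and Ctnnb1 loss with Sox9 present (0 called) 0 to 2. XY Ctnnb1KO against XX Ctnnb1KO also gave 1 with no filter, 1 with the mean of all probe sets, 5 with only the arrays compared and 4 with the replicate block; the cause was not tested. For single genes in XX gonads without against with Ctnnb1, 574 of 595 alternative values kept their direction and call, 16 lost the call (C1qa 14, Rac2 2), 5 gained it (Hmox1 4, Cx3cr1 1) and 0 reversed. The replicate block changed the count by more than 1.5 times in no other comparison, with 19 in place of 20 for XX gonads without against with Ctnnb1. Replicate numbers did not pair the arrays: over 105 pairs with the same number the median correlation of deviations was -0.013, and in 0 of 28 pairs of groups were all correlations above 0.1. Per the labels each array is a separate pair of gonads, and litters are not named. Cd14, Adgre1, Itgam, Spi1, Cd48, Cd163 and Trem2 were above their array's median on no array, so their differences rest on dim signals.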

Other observations

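Genes of Sertoli, Leydig and germ cells and of the cell cycle were read with the same XX comparison, 8 arrays without against 8 with Ctnnb1 (limma, adjusted p under 0.05). Of all tested genes, 11.1% rose and 10.2% fell there. Of 5 tested Leydig cell genes, 4 rose and 1 fell, with Hsd17b3 at 4.50 ± 0.18 and Hsd3b1 at -1.43 ± 0.12. Of 8 Sertoli cell genes, 4 rose and 1 fell, with Dhh at 1.56 ± 0.12. Of 13 germ cell genes, 5 rose and 0 fell, led by the pluripotency gene Pou5f1 at 1.67 ± 0.25, and of 10 proliferation genes 6 rose and 0 fell, led by Cdk1 at 0.45 ± 0.08. In XY DKO against XY Sox9KO, where 11.1% of all tested genes rose and 10.8% fell, the counts were 5 and 0 of 5, 4 and 1 of 8, 4 and 0 of 13 and 3 and 0 of 10. Their relation to the macrophage and leukocyte genes was not tested.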
